A study of Homo sapiens with 12 samples.

Results

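RAB21, SCML2, UNG, BLOC1S6 and FGFRL1 are 5 genes with low RNA levels after siRNA against LARP4A in both a prostate carcinoma line and an osteosarcoma line. They were chosen by name because they were among the genes with the lowest siLARP4A fold changes in these same libraries, so their siLARP4A values are given as a description and carry no test. They are 5 of 26464 gene symbols used and 5 of 15683 genes with enough fragments to be tested. Tests are given for the second siRNA, siLARP4B, whose libraries the choice did not use, and for the difference between the lines with siControl. The 4 siControl libraries did enter the choice, so these tests are not fully independent of it, and the effect of that sharing on the p-values was not tested.

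The study measured poly(A) RNA by sequencing in PC3 cells, labelled as prostate adenocarcinoma, and MG63 cells, an osteosarcoma line, both labelled wild type. With a lipid reagent, cells received 1 of 3 siRNAs at 10 nM, namely the non-targeting siControl, siLARP4A against LARP4A or siLARP4B against LARP4B, and RNA was collected 72 h later. There are 6 groups of 2 libraries, 12 in all, and the series calls the 2 libraries of a group biological replicates. All groups are pools of transfected cells of 1 established line each, and the siRNA sequences and the number of siRNAs per target are not given in the sources used here. In each line the siLARP4A and siLARP4B comparisons share the same siControl libraries.

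LARP4A, whose gene is listed as LARP4, is an RNA-binding protein that binds poly(A) sequence and poly(A)-binding protein and is known for protecting the tails of messenger RNAs. LARP4B is its close relative. The 5 genes have separate textbook roles: RAB21 is a small GTPase of early endosomes that carries integrins, SCML2 is a Polycomb group protein, UNG removes uracil from DNA, BLOC1S6 (pallidin) is a subunit of a complex that builds lysosome-related organelles, and FGFRL1 is a membrane receptor that binds fibroblast growth factors but has no kinase domain. An siRNA cuts a transcript to which it pairs along its length, and it can also lower other transcripts that pair with its seed, mostly in their 3′ untranslated regions (UTRs).

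Library totals ranged from 16950119 to 24864977 fragments. Replicates of each group differed by more than counting error, with a chi-square per degree of freedom of 1.65 to 6.45, highest in PC3 siLARP4A and then in MG63 siLARP4B. The targeted gene followed the labels, with LARP4 at 12.6% of the siControl mean after siLARP4A in PC3 and 25.8% in MG63, and LARP4B at 18.4% and 30.5% after siLARP4B. LARP4 itself was at 98.3% of siControl after siLARP4B in PC3 but rose to 133% in MG63, by 0.43 on a log2 basis (edgeR adjusted p 8.4e-06). The epithelial marker EPCAM was at 18.6 to 25.3 FPKM (fragments scaled to the library total and to transcript length) in the PC3 libraries and at most 0.066 in MG63. CDH1 and KRT19 were at 3.23 to 4.62 and 273 to 401 FPKM in PC3 and at most 0.0235 and 2.11 in MG63. KRT8 and KRT18 were at 203 to 301 and 261 to 318 FPKM in PC3, and were also present in MG63, at 25.7 to 30.2 and 26.8 to 40.2. COL1A1, a collagen of bone cells, was at 719 to 1337 FPKM in MG63 and 2.38 to 8.90 in PC3, while RUNX2, a transcription factor that defines the osteoblast lineage, was at most 0.654 FPKM in every library of both lines. Among the leukocyte markers, CD3E was at 0 in every library, and LYZ was at 0.493 to 1.58 FPKM in PC3 and at 0 in MG63. These are bulk libraries, in which fewer cells expressing a gene and less RNA per cell cannot be told apart.

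Because an siRNA aimed at LARP4 mRNA carries a stretch of its sequence, the stretches that each of the 5 mRNAs shares with LARP4 mRNA were searched first. No siRNA site itself could be looked for. The GENCODE 29 transcript closest in length to each gene's model was compared with a LARP4 transcript of 6427 bases, and the longest identical same-strand run is printed 5′ to 3′, with no letters in capitals since the whole run matches.
RAB21: atatatatatatatata
UNG: gtggctggggtgcctg
SCML2: cacaagttcaccact
BLOC1S6: aattcttgaagtg
FGFRL1: taatgatggaa
The RAB21 run has 17 bases, lies in the 3′ UTR (exon 7, chr12:71794407-71794423, plus strand, GRCh38) and is an AT repeat that LARP4 holds in its own 3′ UTR. UNG has a second run of the same length, 16 bases, which is also an AT repeat in its 3′ UTR. The UNG run printed lies in the coding part of exon 1 (chr12:109097776-109097791, plus strand) and matches the LARP4 3′ UTR at chr12:50476368-50476383. The SCML2 run of 15 bases lies in the coding part of exon 13 (chrX:18246645-18246659, minus strand) and matches the LARP4 3′ UTR at chr12:50478673-50478687. BLOC1S6 has 3 runs of 13 bases, and the one printed joins its 3′ UTR in exon 5 (chr15:45607479-45607491, plus strand) to LARP4 coding sequence in exon 5 (chr12:50435605-50435617). The FGFRL1 run of 11 bases lies in the 3′ UTR (exon 8, chr4:1026671-1026681, plus strand) and matches the LARP4 3′ UTR at chr12:50479042-50479052.

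None of these runs reaches 19 bases, the usual length of paired siRNA, on the same strand. Over 13523 tested genes with a matched transcript, the median longest run was 13 bases and 1.41% of genes had one of at least 19. A run as long as that of RAB21 or longer was present in 3.8% of genes, as long as that of UNG in 6.5%, of SCML2 in 12.8%, of BLOC1S6 in 50.8% and of FGFRL1 in 95.1%. Runs against the opposite strand of LARP4 were 19 bases for RAB21, 18 for UNG and FGFRL1, 15 for BLOC1S6 and 13 for SCML2, and the RAB21, UNG and FGFRL1 runs are AT or AC repeats. An opposite-strand run at least as long was present in 1.1% of genes for RAB21 and in 1.6% for UNG and for FGFRL1. The share was 11.5% for BLOC1S6 and 49.2% for SCML2, and the median over genes was 12 bases.

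Shorter stretches, of the length of a seed match, were then counted. LARP4 mRNA holds 4520 of the 16384 possible words of 7 bases. Exactly 6 words occur in the 3′ UTRs of all 5 genes, and all 6 also occur in LARP4 mRNA. They range from aatgctg, in the 3′ UTRs of 2229 other genes, to tattttt, in those of 6188, so all are common words. LARP4 mRNA is 35.8% G and C, beside a median of 48.8% over genes. How many words other sets of 5 genes share with LARP4 mRNA was not counted, so no excess can be read from the 6. Among 12256 other genes with a 3′ UTR, those with each word had a median siLARP4A log2 fold change that was higher than that of genes without it, by 0.0107 to 0.0659 in PC3 and by 0.0185 to 0.0417 in MG63. After siLARP4B the same differences were -0.0833 to -0.0076 in PC3 and -0.0021 to 0.0006 in MG63. Neither the length nor the base composition of the 3′ UTR was taken into account in these medians. The words were picked because the 5 genes share them and not from a known seed, so the medians cannot decide whether a seed match acts. The 3′ UTR of RAB21 is 14612 bases long, longer than those of 99.7% of genes, so it holds 3050 of the LARP4 words, while the 3′ UTR of FGFRL1 with 1544 bases holds 305. Which strand or seed the siRNAs use is not known here, and a seed match need not be shared by all 5 genes, so direct siRNA pairing was not tested.

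**Figure D1:**
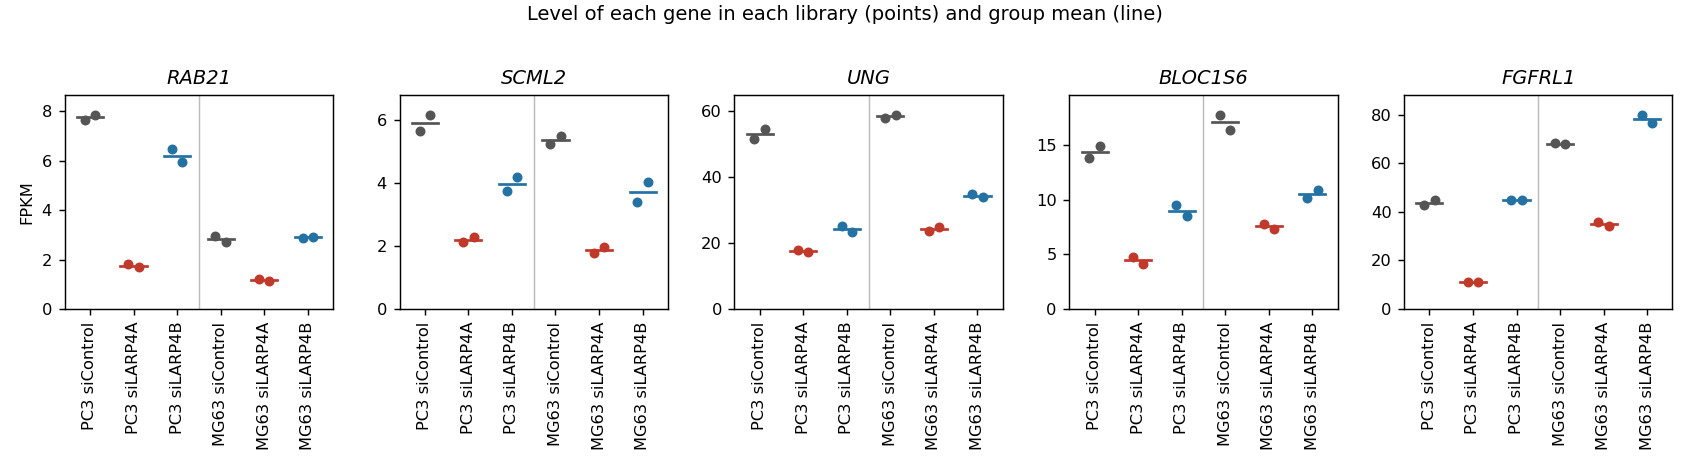
FPKM of each gene (vertical axes, linear, starting at 0) in the 12 libraries, grouped by line and siRNA; points are libraries and short lines are means of 2. In each panel both siLARP4A libraries lie below both siControl libraries of the same line, and for FGFRL1 the siLARP4B libraries lie at or above siControl.

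RAB21, the endosomal GTPase (chr12:71754863-71800286, plus strand, a single model of 15558 bases), was at 7.66 and 7.87 FPKM in the PC3 siControl libraries, 1.82 and 1.68 with siLARP4A, and 6.46 and 5.94 with siLARP4B. In MG63 it was at 2.94 and 2.71 with siControl, 1.19 and 1.14 with siLARP4A, and 2.87 and 2.93 with siLARP4B. The siLARP4A libraries were the lowest of each line, and in MG63 the siControl and siLARP4B libraries overlapped. The siLARP4A mean was 22.5% of siControl in PC3 and 41.2% in MG63, with log2 fold changes of -2.13 (SE 0.066) and -1.28 (SE 0.078). After siLARP4B, RAB21 fell in PC3 by 0.33 in log2 units (SE 0.060, edgeR adjusted p 0.00011), and its MG63 value was 0.06 (SE 0.068, edgeR adjusted p 0.56), within an interval of -0.08 to 0.19 at 2 SE.

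SCML2, which carries MBT repeats and binds Polycomb repressive complex 1 (chrX:18239313-18354688, minus strand, model of 4162 bases), was at 5.66 and 6.17 FPKM with siControl in PC3, 2.14 and 2.27 with siLARP4A, and 3.75 and 4.18 with siLARP4B. In MG63 the values were 5.23 and 5.50, then 1.77 and 1.98, then 3.40 and 4.01. The order siControl, siLARP4B, siLARP4A held in both lines with no overlap between groups, and the low place of siLARP4A follows from the choice. The siLARP4A means were 37.2% and 35.0% of siControl in PC3 and MG63, with log2 fold changes of -1.41 (SE 0.10) and -1.51 (SE 0.11). After siLARP4B, SCML2 fell by 0.58 in PC3 (SE 0.098, edgeR adjusted p 4.3e-05) and in MG63 by 0.52 (SE 0.099, edgeR adjusted p 0.00030).

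UNG, the main uracil-DNA glycosylase of dividing cells (chr12:109097597-109110992, plus strand, model of 2048 bases), was at 51.5 and 54.7 FPKM with siControl in PC3, 17.9 and 17.2 with siLARP4A, and 25.1 and 23.3 with siLARP4B. In MG63 it was at 57.9 and 59.0, then 23.6 and 24.9, then 34.9 and 34.0. The 3 groups were again separate and in the same order in each line. The siLARP4A means were 33.1% and 41.5% of siControl, with log2 fold changes of -1.58 (SE 0.060) and -1.27 (SE 0.059). UNG had the largest fall of the 5 genes after siLARP4B, by 1.14 in PC3 (SE 0.059, edgeR adjusted p 1.1e-12) and in MG63 by 0.75 (SE 0.057, edgeR adjusted p 1.4e-09).

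BLOC1S6 (chr15:45587123-45609716, plus strand, model of 4038 bases) was at 13.9 and 15.0 FPKM with siControl in PC3, 4.77 and 4.14 with siLARP4A, and 9.50 and 8.50 with siLARP4B. In MG63 it was at 17.8 and 16.4, then 7.82 and 7.34, then 10.2 and 10.9. Each group was separate from the others of its line, with siLARP4B in between. The siLARP4A means were 30.9% and 44.3% of siControl, with log2 fold changes of -1.67 (SE 0.083) and -1.17 (SE 0.078). After siLARP4B, BLOC1S6 fell by 0.68 in PC3 (SE 0.078, edgeR adjusted p 2.5e-07) and in MG63 by 0.68 (SE 0.075, edgeR adjusted p 3.3e-07).

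FGFRL1 (chr4:1011626-1026898, plus strand, model of 3411 bases) was at 42.8 and 44.7 FPKM with siControl in PC3, 10.9 and 11.2 with siLARP4A, and 44.8 and 45.0 with siLARP4B. In MG63 it was at 68.5 and 67.8, then 35.9 and 34.3, then 80.2 and 76.6. The siLARP4A libraries were the lowest of each line, and the siLARP4B libraries were above both siControl libraries in both lines, in PC3 by little. The siLARP4A means were 25.2% and 51.4% of siControl, with log2 fold changes of -1.97 (SE 0.053) and -0.96 (SE 0.048). After siLARP4B, the MG63 level of FGFRL1 rose by 0.22 (SE 0.046, edgeR adjusted p 0.00068), and its PC3 value was 0.03 (SE 0.048, edgeR adjusted p 0.60).

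By the choice of genes, all 5 had both siLARP4A libraries below both siControl libraries in each line, a pattern that 28.7% of tested genes showed in PC3 and 32.4% in MG63. The share of genes with all 3 groups separate and siLARP4B in between, as for SCML2, UNG and BLOC1S6, was not counted. Of all tested genes, 16.9% were called lower after siLARP4A in PC3, 13.5% in MG63 and 7.35% in both. The median siLARP4A log2 fold change of the 5 genes was -1.67 in PC3 and -1.27 in MG63, beside 0.03 and 0.00 over all tested genes. Among 6739 genes with a mean of at least 5 FPKM in siControl of both lines, ordered by the larger of both siLARP4A fold changes, the first 4 places were held by LARP4, SCML2, UNG and BLOC1S6. FGFRL1 was at place 12, between MEAF6 (-1.01 in PC3, -0.97 in MG63) and HSD17B2 (-0.96 and -0.94). EDEM3, next after BLOC1S6, had -1.34 and -1.17. RAB21 is not in that order because its MG63 siControl level was under 5 FPKM, and in PC3 alone it was at place 2 of 8598.

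The siLARP4A fold changes were nearer to 0 in MG63 than in PC3 for 4 of the 5 genes, as they were for LARP4 itself. The difference, MG63 minus PC3, was 1.01 for FGFRL1 (SE 0.071), 0.85 for RAB21 (SE 0.10), 0.49 for BLOC1S6 (SE 0.11) and 0.31 for UNG (SE 0.084), and -0.10 for SCML2 (SE 0.16). LARP4 had -2.98 in PC3 and -1.96 in MG63. Over all tested genes, 11.2% were called different between the lines in this effect, in either direction. The share of tested genes with a fold change nearer to 0 in MG63 was not counted. Calls after siLARP4A were fewer in MG63 (4208 genes) than in PC3 (5715). A link of the 5 line differences to that of LARP4 was not tested. Levels with siLARP4A were also lower than with siLARP4B in both lines, by a log2 difference from -0.44 (UNG) to -2.00 (FGFRL1) in PC3 and from -0.50 (BLOC1S6) to -1.34 (RAB21) in MG63.

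**Figure D2:**
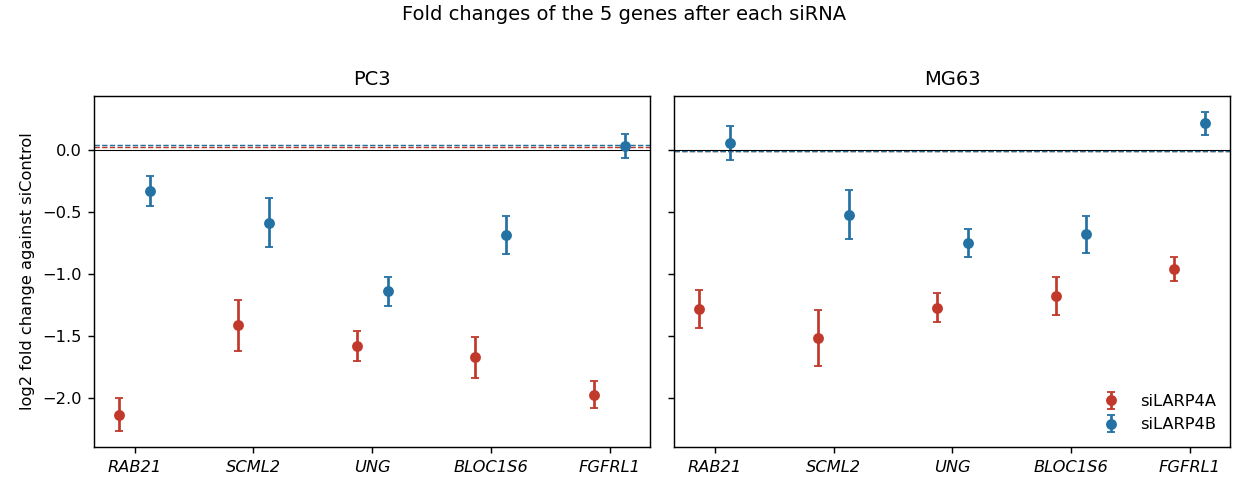
Log2 fold change against siControl (vertical axis) of each gene after siLARP4A (red) and siLARP4B (blue) in PC3 and MG63, with bars of 2 SE from the edgeR fit and dashed lines at the median of all tested genes. The siLARP4A values lie between -2.13 and -0.96, while the siLARP4B values run from -1.14 for UNG in PC3 to 0.22 for FGFRL1 in MG63.

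The siLARP4B comparison asks how the same genes behave when the mRNA of the related protein is lowered, and it shares its siControl libraries with the siLARP4A comparison. LARP4 mRNA was higher with siLARP4B in MG63, as given above, and its part in these values was not tested. In PC3, 4 of the 5 genes passed the threshold (edgeR adjusted p under 0.05), where 45.7% of tested genes did, and all 4 were lower, as were 20.9% of tested genes. In MG63, 4 passed, where 34.9% of tested genes did, with 3 lower (16.9% of tested genes) and FGFRL1 higher (18% of tested genes). SCML2, UNG and BLOC1S6 were lower in both lines, a pattern of 8.58% of tested genes. The median of the 5 genes was -0.58 in PC3 and -0.52 in MG63, beside 0.04 and 0.00 over all tested genes.

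The siLARP4B effect itself was then compared between the lines, which share no library. RAB21, UNG and FGFRL1 passed the threshold, where 26.8% of tested genes did. The difference, MG63 minus PC3, was 0.38 for RAB21 (SE 0.090, edgeR adjusted p 0.0030), 0.39 for UNG (SE 0.082, edgeR adjusted p 0.0011) and 0.19 for FGFRL1 (SE 0.066, edgeR adjusted p 0.041). UNG fell further in PC3 than in MG63, and RAB21 fell in PC3 beside an uncalled 0.06 in MG63. The FGFRL1 call was lost without PC3 siControl replicate 2 (0.17, edgeR adjusted p 0.13), without PC3 siLARP4B replicate 1 (0.19, edgeR adjusted p 0.11) or replicate 2 (0.20, edgeR adjusted p 0.087), with the replicate number as a block (0.19, edgeR adjusted p 0.055), with a mean of at least 5 FPKM in any group (0.13, edgeR adjusted p 0.12) and with limma (0.16, adjusted p 0.054). No difference was detectable for SCML2 (0.07, interval -0.21 to 0.35 at 2 SE, edgeR adjusted p 0.79) or BLOC1S6 (0.00, interval -0.21 to 0.22, edgeR adjusted p 1.0).

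With siControl alone, 4 of the 5 genes differed between MG63 and PC3, where 82% of tested genes did. RAB21 was lower in MG63, with a value of -1.28 on the log2 scale for MG63 minus PC3 (SE 0.064, edgeR adjusted p 1.9e-14). FGFRL1 was higher in MG63 by 0.82 (SE 0.047, edgeR adjusted p 2.2e-13), BLOC1S6 by 0.43 (SE 0.073, edgeR adjusted p 1.1e-05) and UNG by 0.32 (SE 0.055, edgeR adjusted p 1.2e-05). SCML2 was at 5.91 ± 0.361 FPKM (SD, n = 2) in PC3 and 5.37 ± 0.189 in MG63, which did not pass the threshold. In siControl libraries the order of levels was FGFRL1 or UNG highest, then BLOC1S6, with SCML2 and RAB21 lowest; in PC3 the order was UNG, FGFRL1, BLOC1S6, RAB21 and SCML2, and in MG63 FGFRL1, UNG, BLOC1S6, SCML2 and RAB21.

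Other transcript models of the same genes gave like values. The 13 BLOC1S6 models had siLARP4A levels of 30.7% to 31.5% of siControl in PC3 and 43.8% to 44.4% in MG63. The 4 FGFRL1 models had 25.2% to 25.5% and 51.3% to 51.4%, the 2 SCML2 models 37.2% to 38.6% and 34.6% to 35.0%, and the 2 UNG models 33.1% to 33.7% and 41.2% to 41.5%. The models share most of their exons, so these values are not independent. The base composition of the mRNAs ranged widely. RAB21 mRNA is 37.1% G and C, SCML2 40.1%, BLOC1S6 39.0%, UNG 50.7% and FGFRL1 63.5%, beside a median of 48.8%.

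Across the 12 libraries, log2 values centred within each line correlated between the 5 genes at a Pearson r of 0.691 (UNG and FGFRL1) to 0.983 (RAB21 and FGFRL1). SCML2, UNG and BLOC1S6 correlated with each other at 0.927 to 0.953, and RAB21 correlated with BLOC1S6 at 0.909, with SCML2 at 0.906 and with UNG at 0.797. FGFRL1 correlated with BLOC1S6 at 0.841 and with SCML2 at 0.835. With LARP4, r was 0.989 for FGFRL1, 0.987 for RAB21, 0.875 for SCML2, 0.840 for BLOC1S6 and 0.712 for UNG. These r values rest on 12 libraries in 6 groups and mostly restate the group means. Among these libraries are those with siLARP4A, in which LARP4 was targeted and on which the 5 genes were chosen. High r values therefore follow in part from the choice. The tested genes most like RAB21 were FGF2 (r 0.990), PSMD10 (0.989), a proteasome assembly factor, and AK4 (0.989), a mitochondrial adenylate kinase. Those most like FGFRL1 were RPL5 (0.996), a ribosomal protein, PSMD10 (0.995) and COX7C (0.995), a respiratory chain subunit. SNX5 (0.991), FOXJ2 (0.989) and ACAD9 (0.981) were most like SCML2, EDEM3 (0.981) and INAFM2 (0.965) among those most like UNG, and SGMS2 (0.982), RASSF3 (0.978) and RALB (0.973) most like BLOC1S6.

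**Figure D3:**
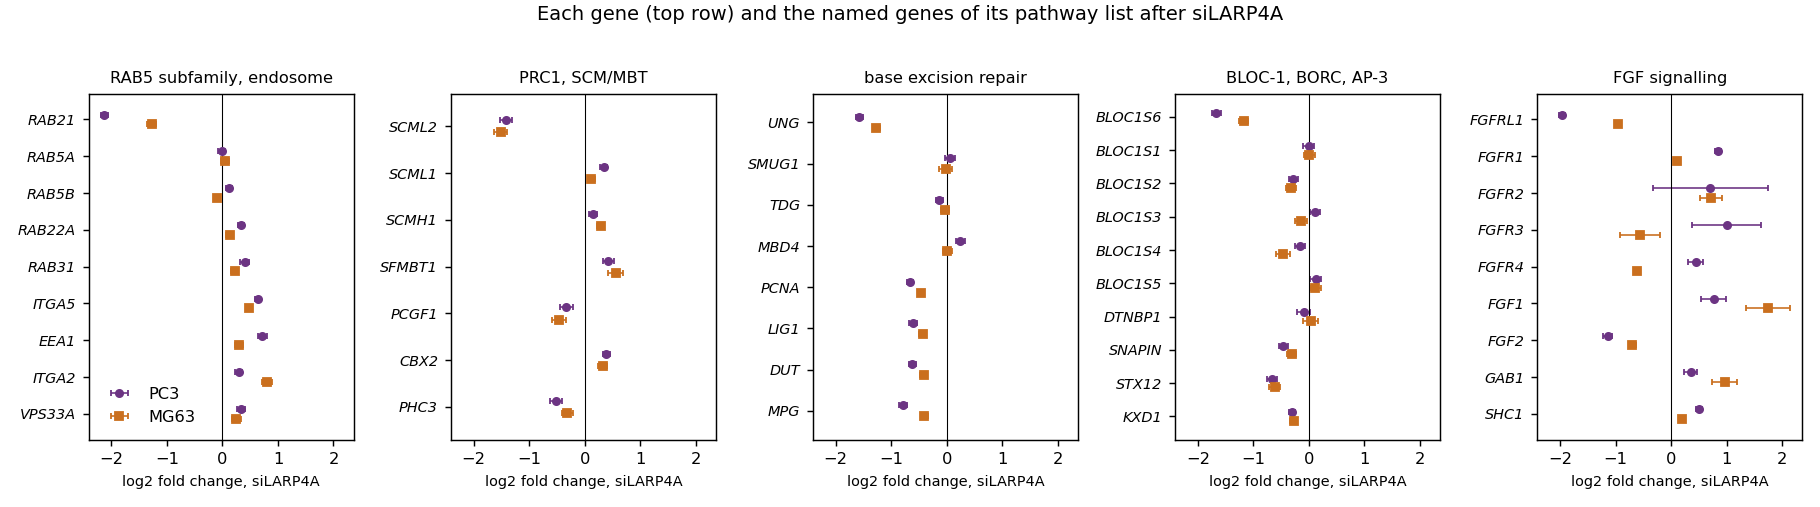
Log2 fold change after siLARP4A (horizontal axes) in PC3 (circles) and MG63 (squares), with bars of 1 SE, for each of the 5 genes (top row of its panel) and the named genes of its pathway list. The 5 genes lie lowest in their panels in both lines. PCNA, LIG1, DUT and MPG lie below 0 in both lines. FGFR4 lies above 0 in PC3 and below 0 in MG63, as does FGFR3, which is at most 0.316 FPKM in any group mean.

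RAB21 belongs to the RAB5 subfamily of GTPases, whose members control entry into and fusion of early endosomes. Of 37 tested genes of that subfamily, its regulators, tethers and integrin cargo, 17 were called higher and 5 lower after siLARP4A in PC3, where 19.5% and 16.9% of all tested genes were, with a median log2 fold change of 0.12 beside 0.03 over all genes. In MG63, 11 were higher and 4 lower, where 13.3% and 13.5% of all tested genes were, with a median of 0.05. The 17 became 9 without PC3 siControl replicate 1, 11 without PC3 siLARP4A replicate 1 and at most 16 without any other 1 library. With only the libraries of the contrast, 11 were higher in PC3. The 11 became 5 without MG63 siControl replicate 1 and 7 without any other 1 of the MG63 siControl or siLARP4A libraries, and the 4 became 2 without replicate 2 of either group. RAB5A (-0.01 in PC3 and 0.05 in MG63) and RAB5B (0.12 and -0.10), the best known members, did not pass in either line, and RAB22A rose in PC3 by 0.33 (SE 0.056, edgeR adjusted p 7.0e-05). ITGA5, the alpha subunit of the fibronectin receptor, rose from 35.9 to 55.1 FPKM in PC3 and from 81.4 to 114 in MG63, by 0.64 (SE 0.044, edgeR adjusted p 2.2e-10) and 0.48 (SE 0.042, edgeR adjusted p 1.4e-08). ITGA2, a collagen receptor subunit, rose by 0.29 and 0.80, and EEA1, which tethers early endosomes, by 0.72 and 0.30, the MG63 call of EEA1 being lost without MG63 siControl replicate 2 (0.28, edgeR adjusted p 0.053). After siLARP4B, 18 of the 37 were higher and 8 lower in PC3, where 24.8% and 20.9% of all tested genes were, and 9 and 9 in MG63, where 18% and 16.9% were, while ITGA2 had -1.82 and -0.76. The 18 became 10 without PC3 siControl replicate 1 and 11 without PC3 siLARP4B replicate 1 or either MG63 siControl library, and both counts of 9 became 5 without MG63 siControl replicate 1.

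SCML2 acts beside the Polycomb repressive complexes, which silence genes through histone marks. Of 32 tested genes of these complexes and of the SCM and MBT family, 12 were higher and 3 lower after siLARP4A in PC3 (19.5% and 16.9% of all tested genes, median 0.17) and 6 and 6 in MG63 (13.3% and 13.5% of all tested genes, median 0.05). The MG63 count of lower genes became 0 without MG63 siControl replicate 2, 1 without siLARP4A replicate 2 and 3 without siControl replicate 1, and the PC3 count became 1 without PC3 siControl replicate 2. SCML1, the closest relative of SCML2, rose in PC3 by 0.35 (SE 0.064, edgeR adjusted p 0.00018) and had 0.12 in MG63, and the MG63 level of SCMH1 rose by 0.29 (SE 0.068, edgeR adjusted p 0.0025). SFMBT1, another MBT protein, rose by 0.42 and 0.56, and CBX2, a chromodomain subunit, by 0.39 and 0.32. PHC3, a Polyhomeotic subunit, fell by 0.52 in PC3 (SE 0.11, edgeR adjusted p 0.00049) and 0.31 in MG63 (SE 0.094, edgeR adjusted p 0.017), and PCGF1, a RING finger subunit, by 0.33 (SE 0.12, edgeR adjusted p 0.042) and 0.46 (SE 0.12, edgeR adjusted p 0.0083). The MG63 call of PHC3 was lost without MG63 siControl replicate 1 (-0.29, edgeR adjusted p 0.12) or 2 (-0.32, edgeR adjusted p 0.078) or siLARP4A replicate 2 (-0.22, edgeR adjusted p 0.21). PCGF1 lost its PC3 call without PC3 siControl replicate 1 or 2 or siLARP4A replicate 1 and its MG63 call without replicate 2 of MG63 siControl or siLARP4A (edgeR adjusted p 0.086 to 0.22). After siLARP4B, 5 of the 32 were higher and 14 lower in PC3 (24.8% and 20.9% of all tested genes, median -0.04), SCML1 among the lower at -0.75, and 6 and 5 in MG63 (18% and 16.9% of all tested genes, median 0.00).

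UNG starts base excision repair, in which the damaged base is cut out and the gap is filled and sealed. Of 27 tested genes of this route, 9 were lower after siLARP4A in PC3 (16.9% of all tested genes, median -0.11), and 14 were lower in MG63 (13.5% of all tested genes, median -0.22). After siLARP4B, 18 were lower in PC3 (20.9% of all tested genes, median -0.39), and 12 in MG63 (16.9% of all tested genes, median -0.18). At most 2 were higher in any of these 4 comparisons. Leaving out any 1 library gave 8 to 10, 10 to 15, 17 to 20 and 9 to 12 lower genes in these comparisons. PCNA, the sliding clamp, went from 141 to 88.4 FPKM in PC3 and from 132 to 95.2 in MG63 after siLARP4A, log2 fold changes of -0.66 (SE 0.052, edgeR adjusted p 2.4e-09) and -0.47 (SE 0.053, edgeR adjusted p 6.8e-07). LIG1, a DNA ligase, had -0.61 and -0.44, DUT, which keeps uracil nucleotides low, -0.62 and -0.42, and MPG, the alkyladenine glycosylase, -0.79 and -0.40, each past the threshold in both lines. After siLARP4B, MPG rose instead in PC3, by 0.30 (SE 0.063, edgeR adjusted p 0.00044), with -0.22 in MG63. In the same comparisons PCNA had -1.08 and -0.14, LIG1 -1.67 and -1.22, and DUT -0.66 and -0.26. PCNA, LIG1 and DUT also serve DNA replication. Of the other uracil glycosylases, SMUG1 had 0.06 and -0.02 and TDG -0.13 and -0.03, none past the threshold, although TDG passed in PC3 with the deduplicated siControl table (-0.16) or without any 1 of the MG63 siLARP4A or siLARP4B libraries (-0.17). MPG overlaps NPRL3, and PCNA overlaps an antisense gene, and how strand was handled in counting is not given in the sources used here.

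BLOC1S6 works within the BLOC-1 complex, with BORC and AP-3 as partners in lysosome and organelle traffic. Of 25 tested genes of these complexes, 7 were lower and 1 higher after siLARP4A in PC3 (16.9% and 19.5% of all tested genes) and 9 lower and 1 higher in MG63 (13.5% and 13.3%), with medians of -0.09 in both lines. The MG63 count of 9 became 5 without MG63 siLARP4A replicate 1, and the single higher gene was lost in each line without MG63 siControl replicate 1, among other libraries. STX12, the endosomal syntaxin that BLOC1S6 binds, fell from 10.5 to 6.56 FPKM in PC3 and from 7.90 to 5.16 in MG63, by 0.66 (SE 0.089, edgeR adjusted p 4.6e-06) and 0.61 (SE 0.098, edgeR adjusted p 5.95e-05), and KXD1, a BORC subunit, by 0.30 and 0.28. After siLARP4B STX12 rose instead, by 0.57 in PC3 (SE 0.082, edgeR adjusted p 7.0e-06) and 0.46 in MG63 (SE 0.088, edgeR adjusted p 0.00030). Among the other BLOC-1 subunits, SNAPIN fell by 0.46 in PC3 and 0.31 in MG63, and the MG63 call was lost without MG63 siControl replicate 2 (-0.26, edgeR adjusted p 0.099) or siLARP4A replicate 2 (-0.27, edgeR adjusted p 0.094). BLOC1S2 fell by 0.29 in PC3 (SE 0.080, edgeR adjusted p 0.0075) and 0.33 in MG63 (SE 0.092, edgeR adjusted p 0.010). Its PC3 call was lost without PC3 siControl replicate 1 (-0.24, edgeR adjusted p 0.080), and its MG63 call without either MG63 siControl library or siLARP4A replicate 1 (edgeR adjusted p 0.060 to 0.15). BLOC1S4 fell in MG63 by 0.47 (SE 0.12, edgeR adjusted p 0.0064), a call lost without MG63 siControl replicate 2 (-0.35, edgeR adjusted p 0.11) or siLARP4A replicate 1 (-0.42, edgeR adjusted p 0.061), and had -0.16 in PC3. BLOC1S1, BLOC1S3, BLOC1S5 and DTNBP1 did not pass in either line. After siLARP4B 5 of the 25 were higher and 2 lower in PC3 (24.8% and 20.9% of all tested genes) and 8 and 4 in MG63 (18% and 16.9%). In PC3 the 5 became 3 without any 1 of the PC3 siLARP4B or the 6 MG63 libraries, and the 2 became 1 without PC3 siControl replicate 1. In MG63 the counts became 4 and 2 without either MG63 siControl library, the 8 became 5 without siLARP4B replicate 1, and the 4 became 2 without siLARP4B replicate 2.

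FGFRL1 binds fibroblast growth factors beside the 4 kinase receptors FGFR1 to FGFR4. Of 27 tested genes for receptors, ligands and adaptors, 10 were higher and 2 lower after siLARP4A in PC3 (19.5% and 16.9% of all tested genes, median 0.25) and 6 and 5 in MG63 (13.3% and 13.5% of all tested genes, median 0.11). Without MG63 siLARP4B replicate 2, 4 were lower in PC3, and without MG63 siControl replicate 2 or siLARP4A replicate 1, 3 were lower in MG63. FGF2, a ligand of these receptors, fell from 5.21 to 2.32 FPKM in PC3 and from 13.9 to 8.55 in MG63, by 1.14 (SE 0.079, edgeR adjusted p 2.5e-10) and 0.70 (SE 0.063, edgeR adjusted p 2.7e-08); it overlaps NUDT6 on the other strand. SHC1, an adaptor, rose in PC3 by 0.50 (SE 0.053, edgeR adjusted p 1.8e-07), with 0.20 in MG63 (SE 0.050, edgeR adjusted p 0.0042). FGF1, another ligand, at most 1.18 FPKM in any group mean, rose by 0.77 (SE 0.23, edgeR adjusted p 0.011) and 1.75 (SE 0.40, edgeR adjusted p 0.0024). GAB1, a docking protein at most 1.94 FPKM, rose by 0.36 (SE 0.12, edgeR adjusted p 0.020) and 0.96 (SE 0.22, edgeR adjusted p 0.0024). Both lost the PC3 call without PC3 siLARP4A replicate 1 (edgeR adjusted p 0.089 for FGF1 and 0.27 for GAB1), FGF1 also without PC3 siControl replicate 2 (edgeR adjusted p 0.14) and GAB1 without replicate 1 (edgeR adjusted p 0.17), and with DESeq2 (adjusted p 0.11 and 0.15). FGFR1 rose in PC3 by 0.84 (SE 0.052, edgeR adjusted p 4.4e-11) and had 0.11 in MG63, where the call depended on the alternative. FGFR4, which was at 150 FPKM in MG63 and 1.37 in PC3, fell in MG63 by 0.62 (SE 0.048, edgeR adjusted p 3.2e-09), while its PC3 value of 0.44 lost its call without PC3 siControl replicate 1 (0.36, edgeR adjusted p 0.12) or siLARP4A replicate 2 (0.34, edgeR adjusted p 0.11). FGFR2 and FGFR3 were at or under 1 FPKM in siControl of both lines. After siLARP4B 5 of the 27 were higher and 6 lower in PC3 (24.8% and 20.9% of all tested genes) and 7 and 4 in MG63 (18% and 16.9%). Without PC3 siLARP4B replicate 2, 3 were higher and 3 lower in PC3, the latter also without PC3 siControl replicate 1. Without MG63 siControl replicate 2, 4 were higher and 1 lower in MG63, and without MG63 siLARP4B replicate 2, 2 were lower.

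**Figure D4:**
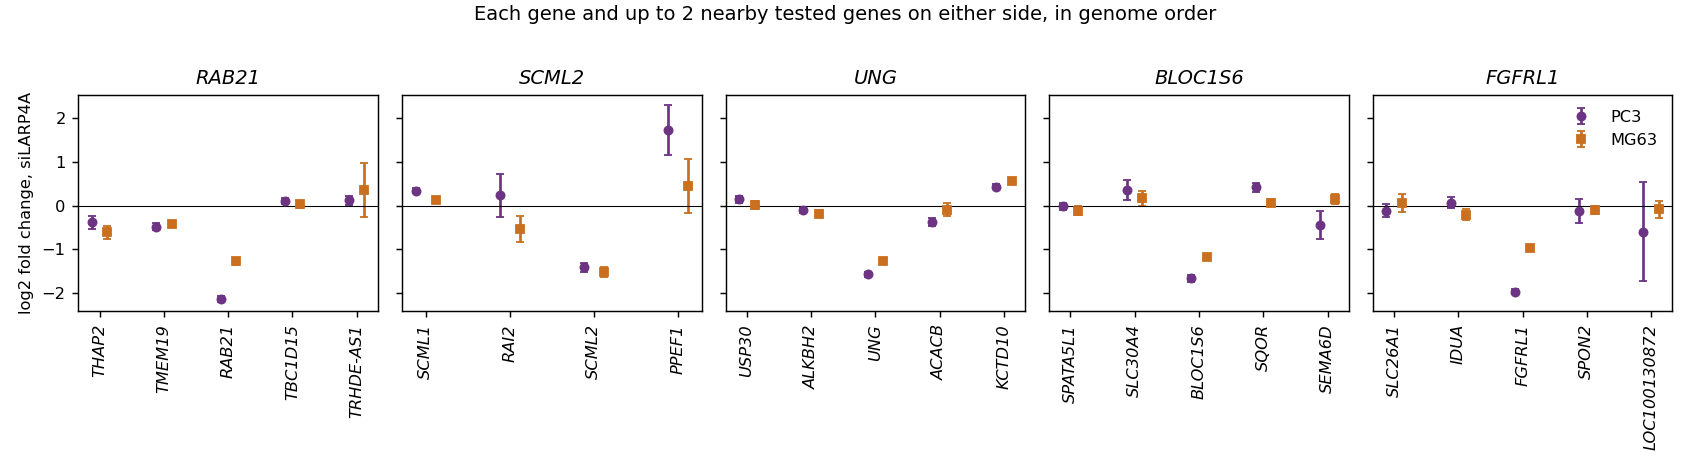
Log2 fold change after siLARP4A (vertical axis) of each of the 5 genes and up to 2 nearby tested genes on either side, in genome order and not to distance, in PC3 (circles) and MG63 (squares) with bars of 1 SE. Each of the 5 genes is lower than its neighbours in both lines; the 2 genes before RAB21 lie between -0.60 and -0.38.

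The nearest tested genes on the chromosome were described to see how far the low levels reach along the genome. Of the 19 neighbours reported, TMEM19, 49816 bases before RAB21, was the one called lower in both lines, at -0.48 (SE 0.078, edgeR adjusted p 4.8e-05) and -0.42 (SE 0.077, edgeR adjusted p 0.00026). THAP2, next to it, had -0.38 in PC3 (edgeR adjusted p 0.058) and fell in MG63 by 0.60 (SE 0.15, edgeR adjusted p 0.0037). On the other side of RAB21, TBC1D15 had 0.11 and 0.04. ALKBH2, 4125 bases before UNG, and USP30, 9579 bases before it, had -0.11 and 0.15 in PC3 and -0.18 and 0.01 in MG63, none past the threshold, while ACACB, 5595 bases after UNG, fell in PC3 by 0.37 (SE 0.098, edgeR adjusted p 0.0048). KCTD10, further after UNG, rose by 0.43 and 0.57. IDUA, SLC26A1 and SPON2 around FGFRL1 and SPATA5L1 beside BLOC1S6 did not pass in either line, and SQOR after BLOC1S6 rose in PC3 by 0.43, a call lost without PC3 siControl replicate 2 (0.29, edgeR adjusted p 0.076).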

How the data were processed

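The authors deposited 1 table per library with a fragment count, an FPM value and an FPKM value for each of 86394 transcript models, per the file headers. The deposited fragment counts are whole numbers, and models with a common exon each count its fragments. The deposited FPM values are treated as a score, since they are scaled by 1 total per library although models count common exons repeatedly. The deposited FPKM values divide FPM by mRNA length in kilobases. FastQC, HISAT2, featureCounts, edgeR and the build hg38 are named in the submitters' processing notes. The annotation and the strand setting are not given in the sources used here. Depth is given at the start of the report; its limits are those of counting error and of 2 libraries per group, and p-values measure only the spread between such libraries.

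Models on primary chromosomes were kept (78363), 1814 symbols at several loci were left out, and each of the 26464 symbols was represented by its model with most fragments in total. The test was edgeR 4.0.16 in R 4.3.3 on counts (quasi-likelihood F-test, TMM, filterByExpr, all 12 libraries fitted together by group, two-sided, Benjamini-Hochberg over 15683 genes, threshold 0.05). The steps were tested on simulated data. Alternatives were DESeq2 1.42.0 and its size factors, other expression filters, limma 3.58.1 on log2(FPKM + 1), other libraries or models, the replicate number as a block, the deduplicated table of 1 library, and leaving out each library. The siLARP4A line difference of relatives, the alternatives for LARP4 and LARP4B with siLARP4B, and the deduplicated table for siLARP4B in MG63 were added after seeing the data.

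Named besides the 5 genes are LARP4 and LARP4B, close relatives and up to 4 genes per pathway list with the largest change shared by the lines, the 2 nearest tested genes on each side, the 3 genes with the most similar profile, and genes beside a member in the ranking; genes that these rules select but that are absent from the text are not reported here. The 5 genes and all lists were chosen with earlier results of these data known. Sequence features came from GENCODE 29 on GRCh38, from a transcript within 20% of the model's length for 86.2% of tested genes.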

Additional observations from a re-analysis of the deposited data

Results flagged for a closer look

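The siLARP4B effect differed between the lines for 3 of the 5 genes by the interaction term of the edgeR fit, MG63 minus PC3 on the log2 scale: RAB21 by 0.38 (edgeR adjusted p 0.0030), UNG by 0.39 (edgeR adjusted p 0.0011) and FGFRL1 by 0.19 (edgeR adjusted p 0.041). Over the alternatives the edgeR, DESeq2 or limma adjusted p ranged up to 0.030 for RAB21, 0.012 for UNG and 0.13 for FGFRL1.

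The siLARP4A effect differed between the lines for 7 named relatives by the same term. FGFR1, an FGF receptor, had a difference of -0.74 (edgeR adjusted p 3.6e-07) and FGFR4 one of -1.06 (edgeR adjusted p 1.9e-05), both kept under every alternative run. FGF2 differed by 0.44 (edgeR adjusted p 0.0057), ITGA2 by 0.52 (edgeR adjusted p 0.0040) and MPG by 0.38 (edgeR adjusted p 0.0070). FGF2 and ITGA2 lost the call with limma on log2(FPKM + 1), with adjusted p of 0.083 and 0.063, and MPG without PC3 siControl replicate 1 (0.30, edgeR adjusted p 0.064). EEA1 differed by -0.42 (edgeR adjusted p 0.011) and SHC1 by -0.29 (edgeR adjusted p 0.0099), and each lost the call in 6 of the alternatives, among them the omission of any 1 of the MG63 siControl or siLARP4A libraries. Of all tested genes, 11.2% differed between the lines in the siLARP4A effect and 26.8% in the siLARP4B effect. The comparison of siLARP4A between lines for these relatives was chosen after seeing the data.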

How the results depend on the processing

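For the 5 genes, 630 values were recomputed under alternatives: 604 stayed on their side of the threshold or within the replicate spread, 6 lost a call, 20 moved by more than the spread and 0 changed direction among called values. The 630 include the siLARP4A values of both lines, on which the genes were chosen and which carry no test. They also include fits without a library outside the comparison, so the 604 is a description and not a measure of robustness. All 6 lost calls were the FGFRL1 difference between lines after siLARP4B. With limma on log2(FPKM + 1), whose added 1 shrinks low values, the siLARP4A values of RAB21 were -1.67 in PC3 and -0.82 in MG63, and those of SCML2 -1.11 and -1.15. The number of genes changed by siLARP4A in MG63, 4208, ranged from 2696 to 4764 when 1 library was left out, lowest without MG63 siControl replicate 1 (2700) or replicate 2 (2696) or siLARP4A replicate 1 (2702). The count of genes differing between the lines with siControl, 12862, was 8529 with a mean of at least 5 FPKM in any group, where fewer genes are tested. Counts in the pathway lists also moved with the method. With DESeq2, FGF genes higher after siLARP4A in PC3 went from 10 to 6, and Polycomb genes lower in MG63 from 6 to 2. RAB5 list genes higher after siLARP4B in PC3 went from 18 to 10. With only the libraries of the contrast, genes higher after siLARP4A in MG63 went from 6 to 12 for Polycomb and from 6 to 11 for FGF. Deviations of same-numbered libraries from their group means correlated at -0.017 to 0.047 over all tested genes, with low-count genes at equal weight. The labels do not say whether a replicate number marks a shared batch, and these correlations cannot decide it. With the replicate number as a block, 6990 genes passed for siLARP4B in PC3 against 7164, and among the 5 genes the block ended the FGFRL1 difference between lines (0.19, edgeR adjusted p 0.055) and no other call. Having 2 libraries in a group, the fit takes most of a gene's spread from the other genes, and the siRNA sequences are not given in the sources used here. With the deduplicated table of PC3 siControl replicate 2, an alternative chosen for the siLARP4B comparison in MG63 after seeing the data, 5298 genes passed there against 5474.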

Other observations

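RAB5C, a close relative of RAB21, had 1 fragment in the 6 PC3 libraries together and 2694 to 3825 fragments in each MG63 library. It lies in a stretch of chromosome 17 (GRCh38, from DHX58 at 42101411 to ATP6V0A1 at 42522579) in which 9 of 14 listed genes had at least 50 fragments in every MG63 library and at most 6 in any PC3 library. These 9 include the acetyltransferase gene KAT2A, the transcription factor genes STAT5B, STAT5A and STAT3, and CAVIN1, a caveola protein gene. STAT3 had at most 1 fragment in a PC3 library and 2841 to 3756 in the MG63 libraries. NAGLU, just beyond the stretch, had up to 300.0 fragments in a PC3 library.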
